A study of Homo sapiens with 1 sample.

Results

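The let-7 microRNAs are cut as hairpins, and each hairpin can give 2 mature strands, a 5p arm and a 3p arm. The 3p arms, often called passenger strands, were followed here. Members were the spots for human miRNAs (not control spots) whose name on the array was one of 10: hsa-let-7a-3p, hsa-let-7b-3p, hsa-let-7c-3p, hsa-let-7d-3p, hsa-let-7e-3p, hsa-let-7f-1-3p, hsa-let-7f-2-3p, hsa-let-7g-3p, hsa-let-7i-3p and hsa-miR-98-3p. All 10 were found among the 2549 human miRNAs of the array, and they were set beside the 9 5p arms of the same precursors. The RNA came from DLD-1, a cell line of human colorectal carcinoma, after it had received a negative control plasmid (pLVX-NC). The study set these cells beside cells overexpressing the circular RNA circLONP2, which were not analysed here. With 1 array there was no replicate of the condition, so no p-value was computed, and every error below is the spread between spots of that array or the error that the scanner software gave.

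A let-7 hairpin is first cut from its primary transcript by Drosha and then by Dicer, after which an Argonaute protein keeps 1 strand of the duplex and the other is mostly lost. In this family the 5p arm is usually the strand kept, and it is known for restraining growth and stem cell genes such as RAS, MYC, HMGA2 and LIN28. A strand finds its targets mainly through its seed, the bases at positions 2 to 8 from the 5′ end. The 3p arms therefore carry other seeds than the 5p arms and could pair with other messages.

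RefSeq (GRCh38.p14) held the mature sequence of 9 of the 10 members and of all 9 5p arms; hsa-let-7f-2-3p is given by name. The 3p arms are shown 5′ to 3′ because probes for close relatives may share bases, with the seed in capitals.
hsa-let-7a-3p: cUAUACAAucuacugucuuuc
hsa-let-7b-3p: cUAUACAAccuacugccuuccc
hsa-let-7f-1-3p: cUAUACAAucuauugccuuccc
hsa-miR-98-3p: cUAUACAAcuuacuacuuuccc
hsa-let-7c-3p: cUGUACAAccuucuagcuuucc
hsa-let-7d-3p: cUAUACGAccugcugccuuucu
hsa-let-7e-3p: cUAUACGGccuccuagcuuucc
hsa-let-7g-3p: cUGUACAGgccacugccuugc
hsa-let-7i-3p: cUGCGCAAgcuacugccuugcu
The first 4 share the seed UAUACAA, and the other 5 each have a seed of their own, which makes 6 seeds among 9 sequences. The 5p arms are more alike, and 2 of them are shown for contrast.
hsa-let-7b-5p: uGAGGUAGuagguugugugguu
hsa-let-7d-5p: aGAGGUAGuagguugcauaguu
All 9 5p arms have the seed GAGGUAG. Compared base by base from the 5′ end, 36 pairs of 3p arms differed at 2 to 11 positions, with a median of 6, and 36 pairs of 5p arms at 1 to 6 positions, with a median of 3. The closest look-alikes discussed below were hsa-let-7b-3p and hsa-let-7f-1-3p, which differed at C9U and C13U (the first arm's base, the position from 1 at the 5′ end, the second arm's base). hsa-let-7g-3p and hsa-let-7i-3p differed at U4C, A5G, G8A and C11U, and hsa-let-7c-3p and hsa-let-7e-3p at G3A, A7G, A8G and U12C.

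The hairpins show how the arms lie. In the RefSeq hairpins below, both arms are in capitals and the loop and the flanks in lower case, and these 3 were chosen because their arms gave the contrasts described below.
MIRLET7A1: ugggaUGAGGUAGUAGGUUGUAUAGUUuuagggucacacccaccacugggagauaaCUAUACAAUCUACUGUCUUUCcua
MIRLET7B: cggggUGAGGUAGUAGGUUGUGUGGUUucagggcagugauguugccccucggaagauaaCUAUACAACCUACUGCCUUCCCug
MIRLET7D: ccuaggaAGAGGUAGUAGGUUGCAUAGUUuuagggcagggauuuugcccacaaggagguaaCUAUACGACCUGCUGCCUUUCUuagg
In RefSeq, MIRLET7A1 (chr9:94175957-94176036), MIRLET7F1 (chr9:94176347-94176433) and MIRLET7D (chr9:94178834-94178920) lie on the plus strand within the noncoding host gene MIRLET7A1HG. MIRLET7A3 (chr22:46112749-46112822) and MIRLET7B (chr22:46113686-46113768) lie within MIRLET7BHG, also on the plus strand. MIR98 (chrX:53556223-53556341) and MIRLET7F2 (chrX:53557192-53557274) lie on the minus strand within HUWE1, and MIRLET7G (chr3:52268278-52268361) on the minus strand within WDR82. On the plus strand, MIRLET7C (chr21:16539828-16539911) lies within MIR99AHG, MIRLET7E (chr19:51692786-51692864) within SPACA6 and MIRLET7I (chr12:62603686-62603769) within MIRLET7IHG. The hsa-let-7a-3p strand comes from MIRLET7A1 and MIRLET7A3, while hsa-let-7a-5p is also made from MIRLET7A2 (chr11:122146522-122146593). hsa-let-7f-5p is made from both let-7f genes, so it was set beside both of their 3p arms.

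The array held 53144 spots, of which 50980 were for human miRNAs, and none was saturated. Brightness was read as the background-subtracted signal in arbitrary units. Among human miRNA spots 45.3% were well above background by the software's flag, against 58 of the 200 member spots (29.0%). The 1000 negative control spots had a 99th percentile of 12.5. Of the marker lists, 5 of 5 epithelial miRNAs were detected (total signal 4.86 to 1112), and so were 2 of 4 intestinal epithelial ones (12.8 and 16.9), with hsa-miR-192-5p and hsa-miR-194-5p not detected. For other cell types, 3 of 4 blood miRNAs were detected, the highest at 6.07, with hsa-miR-451a not detected, and 3 of 4 stromal, endothelial and muscle miRNAs, at 3.02 to 21.6, with hsa-miR-143-3p not detected. Of the liver and brain pair, hsa-miR-122-5p was not detected and hsa-miR-124-3p had a total signal of 28.4, above every let-7 3p arm. Whether such signal has a part in the values of the 3p arms was not tested.

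Most of the 3p arms gave a signal, and it was low. The software called 7 of the 10 detected, all but hsa-let-7c-3p, hsa-let-7e-3p and hsa-let-7i-3p. It called 56.8% of all human miRNAs and 49.4% of those named -3p detected, so the members' share is read as no more than a count. An arm was called when at least 1 of its probes had a total signal over 3 times its own error, and its total signal is the sum over those probes; an undetected arm is written as 0.1, a placeholder. Every arm here had 20 spots, but a total rests only on those of its counted probes, which were 5 for hsa-let-7f-2-3p, 10 for hsa-let-7a-3p and hsa-let-7d-3p, 15 for hsa-let-7g-3p and 20 for the other 3 detected members. Among the detected 5p arms they were 10 for hsa-let-7e-5p and hsa-let-7g-5p and 20 for the rest. Totals of different arms compare brightness and not molecules, because probes of different sequence bind with different strength.

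By total signal the brightest member was hsa-let-7a-3p, with a total of 16.1 ± 1.56 (software error). hsa-let-7d-3p followed at 14.2 ± 1.37, a difference of 1.94 that is below their combined error of 2.08. Next came hsa-let-7g-3p at 8.73 ± 0.790, hsa-let-7b-3p at 7.74 ± 0.794 and hsa-let-7f-1-3p at 7.62 ± 0.791, and none of these 3 differed from another beyond the combined error. hsa-miR-98-3p had 4.87 ± 1.04 and hsa-let-7f-2-3p 1.57 ± 0.380. Each step from hsa-let-7d-3p to hsa-let-7g-3p, from hsa-let-7f-1-3p to hsa-miR-98-3p and from hsa-miR-98-3p to hsa-let-7f-2-3p was larger than the combined error. All 10 members lay below 23.1, the median total of the detected human miRNAs, and only hsa-let-7a-3p and hsa-let-7d-3p lay above 13.6, the median of the detected miRNAs named -3p. Among detected miRNAs, 41.2% had a lower total than hsa-let-7a-3p and 1.17% a lower one than hsa-let-7f-2-3p.

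The log2 values that the authors deposited, which were quantile-normalized in their own software, kept this order apart from a tie. Such a normalization keeps the order of values within 1 array, so this is no independent check on the totals. hsa-let-7a-3p had 3.63, hsa-let-7d-3p 3.46, hsa-let-7g-3p 2.85, hsa-let-7b-3p 2.67 and hsa-let-7f-1-3p 2.66 on the log2 scale. hsa-miR-98-3p and hsa-let-7f-2-3p both stood at 2.33, the lowest value any detected miRNA had. The 3 undetected arms stood at 2.32, the lowest value in the column. On the mean log2 brightness of an arm's probes, hsa-let-7g-3p led with 4.45, followed by hsa-let-7b-3p with 4.39, hsa-let-7f-1-3p with 4.36, hsa-let-7a-3p with 4.21 and hsa-let-7d-3p with 4.06. The order of these 5 arms thus depended on how their probes were combined, and hsa-miR-98-3p (3.72) and hsa-let-7f-2-3p (1.18) came last among the detected arms on both scales.

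The same total could come from very different spots. hsa-let-7a-3p was measured by 4 probes of 5 spots each, whose mean brightness was 5.92 ± 1.67, 9.18 ± 0.894, 14.1 ± 2.07 and 160.9 ± 2.62 (SD over spots). The last probe gave 91.9% of the arm's total signal, and only its 5 spots were well above background. The brightest and dimmest probe of hsa-let-7a-3p differed by 4.82 on the log2 scale (SE 0.20).

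hsa-let-7d-3p behaved in the same way. Its probes had mean brightnesses of 3.13 ± 3.00, 11.5 ± 1.27 (4 spots), 22.7 ± 2.87 and 131.3 ± 43.7, a log2 difference of 5.73 (SE 0.59) between the ends, and the last gave 85.3% of the total. The 5 spots of that last probe fell into 2 levels, with 98.1, 98.7 and 101.4 below and 178.2 and 180.0 above. The ratio of its highest to its lowest spot was 1.83, and 198 of the 2280 probes whose spots were all well above background (8.68%) had a ratio as high, where the median was 1.25.

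hsa-let-7b-3p stood at the other end. Its 4 probes had mean brightnesses of 20.2 ± 4.05, 20.4 ± 1.69, 21.1 ± 2.11 and 22.6 ± 1.85, and the shares of the total ran from 23.9% to 26.8%. The log2 difference between its brightest and dimmest probe was 0.19 (SE 0.14), within 2 SE, and 17 of its 20 spots were well above background. hsa-let-7f-1-3p, which shares the last 9 bases with it, was almost as even, with 18.8 ± 0.568, 20.4 ± 2.39, 21.0 ± 2.58 and 22.8 ± 3.68. There the log2 difference was 0.26 (SE 0.11), past 2 SE, and 13 of 20 spots were well above background. Whether the probes of these 2 arms also bind the other arm was not tested.

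hsa-let-7g-3p lay between them. Of its 4 probes 3 counted, at 31.5 ± 7.68, 27.2 ± 7.68 and 36.2 ± 3.54, and the other, at 8.10 ± 2.24, did not, so that the log2 difference was 2.20 (SE 0.18). hsa-let-7f-2-3p rested on 1 probe at 17.1 ± 2.09, with the other probes at -1.22, -0.167 and 1.49, and 1 of its 20 spots was well above background. hsa-miR-98-3p, with 2 probes of 10 spots, had 13.7 ± 0.866 (9 spots) and 12.8 ± 2.14, and not 1 spot well above background, although all 20 were positive and significant by the software's other flag.

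The 3 undetected arms were close to 0 on all their probes. hsa-let-7c-3p had probe means of -3.49 and -3.56, hsa-let-7e-3p -3.29 and 1.31, and hsa-let-7i-3p -0.743, -0.125, 0.743 and 2.48. None of their spots was well above background. hsa-let-7c-3p and hsa-let-7e-3p share their last 10 bases. hsa-let-7i-3p differs from the detected hsa-let-7g-3p at 4 positions, and their GC contents, 59.1% and 61.9%, were the highest of the 9 sequences.

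**Figure D1:**
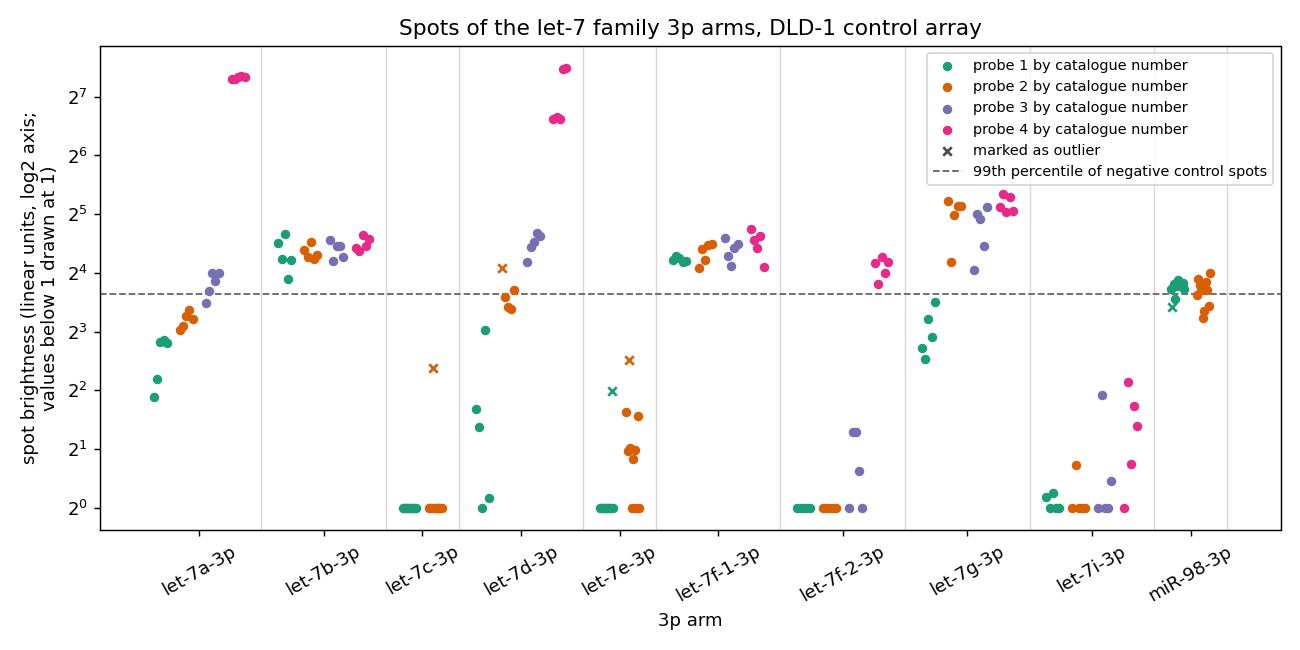
Brightness of each spot (arbitrary units, log scale) for every probe of the 10 let-7 3p arms, with spots below 1 drawn at 1. The last probe of hsa-let-7a-3p, at a mean of 160.9, and that of hsa-let-7d-3p, at 131.3 with spots at 2 levels, stand far above their other probes, and the probes of hsa-let-7b-3p overlap.

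The brightest and dimmest probes were over 2 SE apart in 7 of the 10 members, where 51.1% of all human miRNAs with 2 or more probes were. Among detected arms this held for 5 of 7, all but hsa-let-7b-3p and hsa-miR-98-3p, against 71.5% of detected human miRNAs, so the count is near that of the array. The size of the gap was larger, with a median log2 difference of 2.20 in the 7 detected members, 0.36 in all detected human miRNAs and 1.18 in detected miRNAs with 4 probes. These sets were not matched for brightness. The median total was 7.74 in the detected members and 23.1 in all detected human miRNAs, and whether this has a part in the gap was not tested. In 6 of 6 detected members with 4 probes the brightest probe was the one with the highest catalogue number, and in 39.1% of all such miRNAs. This feature was chosen after its values were seen. In 3 of the 6, hsa-let-7b-3p, hsa-let-7f-1-3p and hsa-let-7g-3p, the brightest probe led the next by less than 2 SE. Of the members' 34 probes 18 counted toward a total, and of the 18 probes of the 5p arms 14. The share over all human miRNA probes is not given here, so these are no more than counts.

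**Figure D2:**
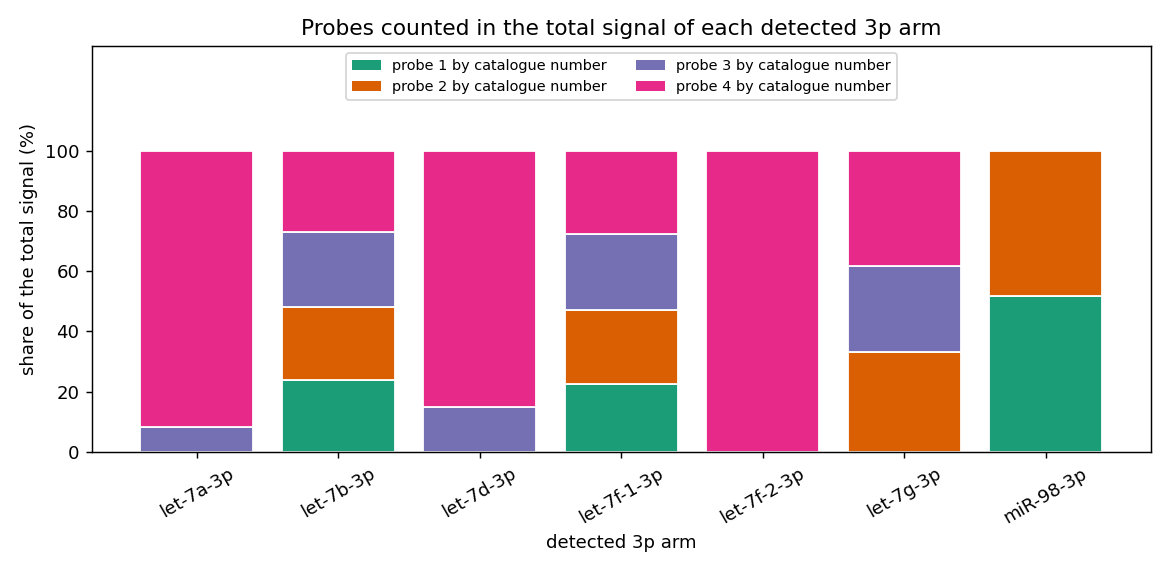
Share of each detected let-7 3p arm's total signal (percent) that came from each probe. 1 probe gave 91.9% for hsa-let-7a-3p, 85.3% for hsa-let-7d-3p and 100% for hsa-let-7f-2-3p, and no probe of hsa-let-7b-3p gave more than 26.8%.

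Set beside the 5p arms, most of the family's signal lay on the 5p side. The 7 detected members summed to 60.8 and the 8 detected 5p arms to 696.9, so the 3p arms held 8.02% of both. hsa-let-7b-5p alone had 375.8 ± 26.6 and hsa-let-7c-5p 172.4 ± 12.7. Their sequences differ at 1 base, G17A, and whether the probes of a 5p arm also bind other 5p arms was not tested. Of the 9 5p arms 8 were detected, all but hsa-miR-98-5p. The 5p arm had the higher total in 7 of 10 precursors, where 62.8% of 666 precursors with an arm detected had it so, and in 4 of the 6 with both arms detected, against 65.4% of 272. Both shares are near those of the array.

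hsa-let-7b was the most one-sided precursor with both arms measured. Its 5p arm at 375.8 was 48.5-fold brighter than its 3p arm at 7.74, a log2 difference of 5.60 (spot SD 0.17), and the 3p arm held 2.02% of the pair. Of the 272 precursors 93.8% had a lower difference. hsa-let-7a, from the same chr22 cluster and from chr9, had 86.5 ± 7.05 on the 5p arm, 5.37-fold above the 3p arm, or 2.43 on the log2 scale (spot SD 0.22). The spot SD combines the mean SD within probes of each arm and leaves out the spread between probes. By other summaries the let-7a difference ran from 1.18 on the brightest probes to 3.90 without the brightest counted probe of each arm. hsa-let-7f-5p, at 30.1 ± 2.75, was 3.95-fold above hsa-let-7f-1-3p and 19.2-fold above hsa-let-7f-2-3p, log2 differences of 1.98 (spot SD 0.23) and 4.26 (spot SD 0.27). Without the brightest counted probe of each arm, a setting chosen after seeing the data, the let-7f-1 difference turned to -0.15. A total sums over spots, and the 3p probes left, at means of 18.8, 20.4 and 21.0, have 5 spots each. The 5p probe left, at a mean of 27.1, has 10 spots, so spot for spot the 5p arm stayed the brighter.

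In 2 precursors the 3p arm was the brighter. hsa-let-7d-3p at 14.2 was 1.27-fold above hsa-let-7d-5p at 11.1 ± 1.29, a log2 difference (5p minus 3p) of -0.35. The spot SD of 0.57 is larger than the difference, but it averages over all probes, including an uncounted one with a log2 SD of 1.24. The software's error of both totals, on the log2 scale, was 0.22, which is smaller than the difference. But 85.3% of the 3p total came from the probe whose spots fell into 2 levels. Whether the sign rests on the upper level was not tested. The let-7d difference stayed below 0 at -1.64 on the brightest probes, -0.48 on the sum over all probes and -0.02 after normexp correction. It turned to 0.74 on the mean of log2 brightness, to 0.72 on that same mean with outlier spots kept, and to 0.80 without the brightest probe of each arm. In the last setting the 3p probe left had a mean of 22.7 over 5 spots and the 5p probe left 19.7 over 10 spots. Spot for spot the 3p arm thus stayed the brighter there. hsa-let-7g-3p at 8.73 was 2.36-fold above hsa-let-7g-5p at 3.69 ± 0.787, a difference of -1.24 with a spot SD of 0.46. These totals rest on 15 spots of the 3p arm and 10 of the 5p arm. The counted 3p probes had means of 27.2 to 36.2 and the counted 5p probe 20.1. By the other measures of brightness the let-7g difference stayed below 0 but was smaller, at -0.87 on the brightest probes, -0.53 on the deposited values and -0.16 after normexp correction. The deposited values keep the order of the totals, so their sign adds no check. The 3p arm held 56.0% of the pair in let-7d and 70.3% in let-7g. Of the 272 precursors with both arms detected, 34.6% had the brighter 3p arm.

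The other 4 precursors had at least 1 arm that was not detected, and 2 of them gave a bound. hsa-let-7c-5p, with a mean brightness of 468.7, was at least 29.4-fold brighter than hsa-let-7c-3p, taken at 16.0, the lowest brightness of a probe well above background. hsa-let-7i-5p, with 40.6, was at least 2.54-fold brighter than hsa-let-7i-3p on the same footing. Whether the brightness of the hsa-let-7c-5p probes includes binding of hsa-let-7b-5p was not tested. For hsa-let-7e no spot of either arm was well above background, the 5p arm having a total of 2.38 ± 0.732. For miR-98 it was the 3p arm that was detected, at 4.87, while hsa-miR-98-5p, with a mean brightness of 3.47 ± 2.94, was not, and as no spot of the 3p arm was well above background no fold is given.

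**Figure D3:**
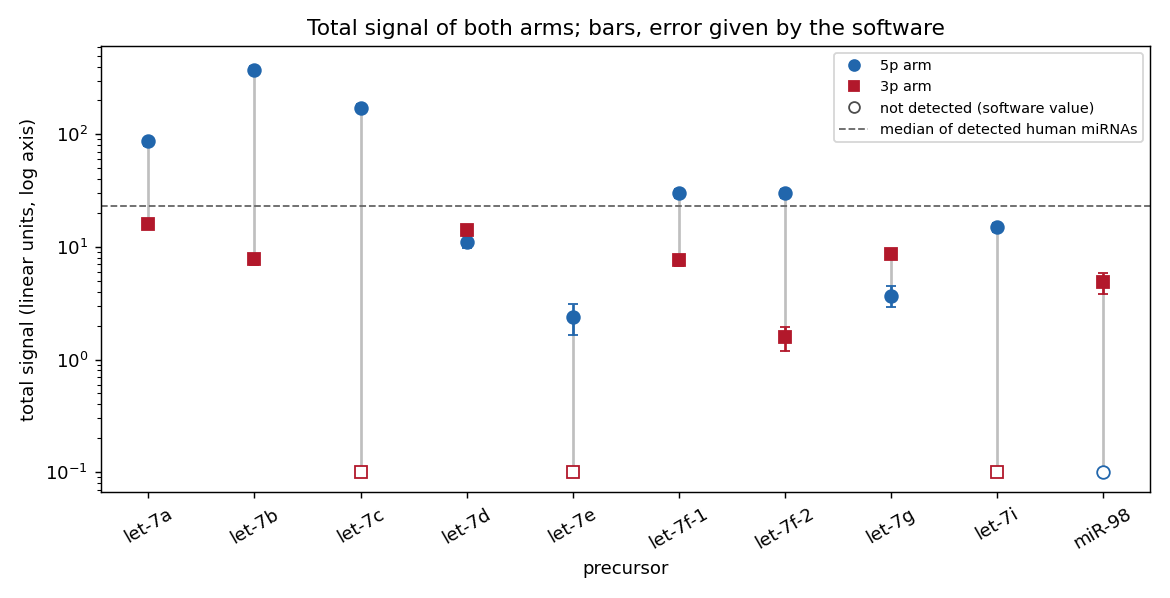
Total signal (arbitrary units, log scale) of the 3p and 5p arm of each of the 10 precursors, with the software's error, hsa-let-7f-5p being drawn for both let-7f precursors and undetected arms at 0.1. The 5p arm is higher for let-7a, b, c, e, f-1, f-2 and i, and the 3p arm for let-7d, let-7g and miR-98.

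**Figure D4:**
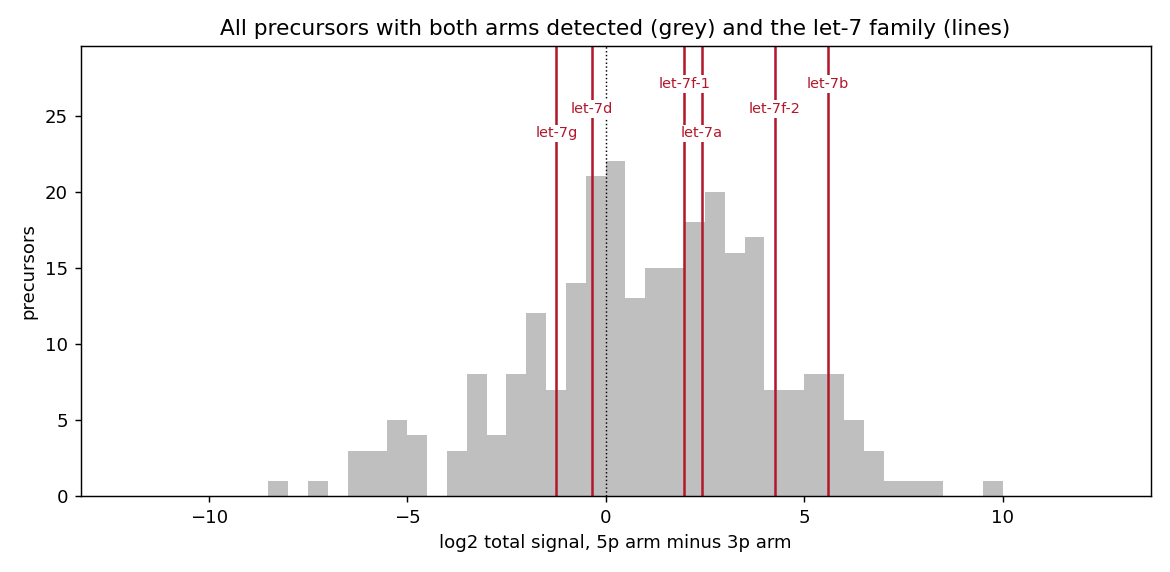
Number of the 272 precursors with both arms detected at each log2 difference of total signal (5p minus 3p), with the 6 let-7 precursors marked. They run from -1.24 for let-7g to 5.60 for let-7b, and the middle 50% of all precursors lies between -0.76 and 3.24.

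The median log2 difference over the 10 precursors was 3.34 with undetected arms at the placeholder, and 2.54 over the 666 precursors of the array. Over the 6 with both arms detected it was 2.20, and 1.24 over the 272.

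The 4 members with the seed UAUACAA were all detected, at 4.87 to 16.1, and of the 5 with a seed of their own hsa-let-7d-3p and hsa-let-7g-3p were. hsa-let-7f-2-3p, detected but without a sequence, is in neither group. The software called 49.4% of human miRNAs named -3p detected, and with so few arms the split is no more than a count.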

How the data were processed

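RNA of 1 sample, the DLD-1 cells with the negative control plasmid, was labelled with Cy3 and hybridised by the authors to a 1-colour Agilent miRNA array. The scanned image was read with Agilent Feature Extraction 11.0.1.1, per the file headers. The deposited scanner values are intensities: the background-subtracted signal of each spot and the total signal of each miRNA. A second deposited column holds log2 values, quantile-normalized by the authors in GeneSpring GX per their methods; which arrays were normalized together is not given in the sources used here. Labels and methods name different labelling kits.

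Outlier spots (4.06% of human miRNA spots) were left out, spot signals averaged per probe with a floor of 1 before log2, and total signals and detection flags taken as the software gave them. For the relative scale, log2 brightness was taken minus that of the 75th percentile of detected probes. A script tested the rules read from the files: detection flags followed a probe total over 3 errors in 100% of human miRNAs, and detected totals equalled the sum of such probes within 0.1% in 100%. Arms were paired by equal name stem. The SE of a probe difference came from the spots, and probes over 2 SE apart were counted. The calculation was tested on simulated data brighter than most member probes, so the range of the dim probes was not covered. Python 3.11.15, numpy 2.4.6, pandas 2.3.3, R 4.3.3 and limma 3.58.1 were used. With 1 array no test was made; the number of arrays limits the precision. Members and lists were chosen with earlier results of these data known. The miRNAs named were the members, their 5p arms, the miR-99, miR-100 and miR-125 arms that share clusters with let-7 genes, and the marker lists; hsa-let-7a-2-3p was not analysed here. Alternatives were other detection criteria, other summaries of probes, normexp correction (offset 50, on median signals) and the deposited log2 values.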

Additional observations from a re-analysis of the deposited data

How the results depend on the processing

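The count of 3p arms detected, 7, was also 7 when a probe had to have at least 50% of its spots positive and significant or a mean above the 99th percentile of the negative controls, criteria that 69.0% and 55.9% of all human miRNAs met. It was 5 with at least 50% of spots well above background (49.9% of all), 4 with every spot (44.6%; hsa-let-7a-3p, hsa-let-7b-3p, hsa-let-7d-3p and hsa-let-7g-3p), and 3 with the brightest probe over 2-fold above that percentile (44.6%; hsa-let-7a-3p, hsa-let-7d-3p and hsa-let-7g-3p). The count of precursors with the brighter 5p arm, 7 of 10, ran from 5 of 8 to 8 of 10 over other summaries of the probes; it was 4 of the 6 with both arms detected and 3 of 4 without the brightest counted probe of each arm, a setting chosen after seeing the data. The median log2 difference of 3.34 was 2.75 on the brightest probes, 2.14 on the sum over all probes, 2.35 without the brightest counted probe, 2.20 with both arms detected, 1.51 on the deposited values and 0.71 after normexp, whose offset draws low values together. hsa-let-7d turned from -0.35 to 0.74 on mean log2 brightness, to 0.72 on that same mean with outlier spots kept and to 0.80 without the brightest probe. hsa-let-7f-1 turned from 1.98 to -0.15 without the brightest probe. Without that probe the totals left of both precursors rest on unequal numbers of spots in the 2 arms. The cause was not tested. Of the other values of single precursors under these settings, 45 moved by more than the spot SD without changing direction and 13 did not. The count of members whose probes differ, 7, was 2 over probes with at least 50% of spots well above background, where fewer probes enter. It was 1 over probes with every spot so. There only hsa-let-7b-3p kept more than 1 probe, at mean log2 brightnesses of 4.35 and 4.49, and that arm was not among the 7. With most member spots not well above background, the order of dim arms is limited by signal. No paired analysis was possible because only the negative control array was used.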

Other observations

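Some let-7 genes lie beside genes of the miR-99, miR-100 and miR-125 families, and 4 of 6 of their 3p arms and 4 of 5 of their 5p arms were detected. On the array 49.4% of human miRNAs named -3p and 56.8% of all human miRNAs were, and with so few arms these are no more than counts. On chr19, beside hsa-let-7e with a 5p total of 2.38 and an undetected 3p arm, hsa-miR-99b-5p and hsa-miR-99b-3p had totals of 14.9 and 32.5. Their neighbour hsa-miR-125a had 3.20 on the 5p arm and 261.8 on the 3p arm. On chr21, beside hsa-let-7c with a 5p total of 172.4, neither arm of hsa-miR-99a was detected.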
